A study of Mus musculus with 10 samples.

Results

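Leukocytes leave the blood by rolling on selectins, arresting on immunoglobulin-like molecules of the endothelium and crossing between endothelial cells. Of the 12393 genes that the arrays named with a single symbol, 9 genes of this route were taken by name: the ligands Icam1 and Vcam1, the selectins Sele and Selp with the selectin ligand Selplg, the junctional molecules Jam2 and Jam3, and the adhesion receptors Alcam and Cd44. They were represented by 18 of 22626 probe sets. Each gene was read from the probe set that had its highest mean level, and the others served as a check. Total RNA came from the whole lung of male C57BL/6 mice aged 6 to 8 weeks. Of 10 mice, 5 were controls kept in normoxia and 5 were exposed to intermittent hypoxia, in which the inspired oxygen falls and recovers repeatedly, with 1 Affymetrix Mouse Genome 430A 2.0 array per animal. For the oxygen levels and the length of the exposure, the value is not given in the sources used here.

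ICAM-1 is the ligand of the leukocyte integrins LFA-1 and Mac-1, is induced on endothelium by inflammatory cytokines through NF-κB, and is abundant on alveolar type 1 cells. VCAM-1 binds the integrin α4β1. E-selectin is made on demand by cytokine-stimulated endothelium, whereas P-selectin is held ready in the granules of platelets and endothelial cells, and PSGL-1, the product of Selplg, is its main ligand on leukocytes. CD44, the receptor of hyaluronan, is carried by leukocytes and by many cells of the lung wall.

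Array medians lay between 7.69 and 7.73 on the log2 scale, and with 5 arrays a group the precision of every comparison is limited. Normoxia arrays 2, 3 and 4 stood apart: their values had a standard deviation of 1.89 to 1.93, against 1.99 to 2.05 on the other 7 arrays. Values without these 3 arrays are therefore given beside the main results, from a comparison of 2 normoxia with 5 hypoxia arrays in which 16 of 22626 probe sets passed. Of the list genes named below that passed with all arrays, Emcn alone also passed there. By another measure a different array stood out. The arrayWeights method gave normoxia array 5 the lowest weight of all, 0.55, against 0.82 to 1.32 for normoxia arrays 2 to 4. Without normoxia array 5, 4800 of 22626 probe sets passed. A level measured in whole lung does not separate the number of cells of a type from the RNA that each of them makes.

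Icam1 and Cd44 rose and Selp fell, while the other 6 genes did not pass the test. Icam1 rose 1.44-fold and Cd44 1.37-fold, and Selp dropped to 0.764 of its normoxia level. With limma and Benjamini-Hochberg adjustment over all probe sets, 3 of 9 genes passed at an adjusted p below 0.05, against 12.5% of all genes. Of these, 2 were higher, against 8.93% of all genes, and 1 was lower, against 3.6%. The median log2 difference of the 9 genes was 0.18, and that of all genes was 0.01. As the genes were named with earlier results of these data known, no p for the list as a whole was computed. The comparisons with marker lists below were adjusted over their own 27 tests of these genes. Those adjusted p values do not allow for that choice.

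**Figure D1:**
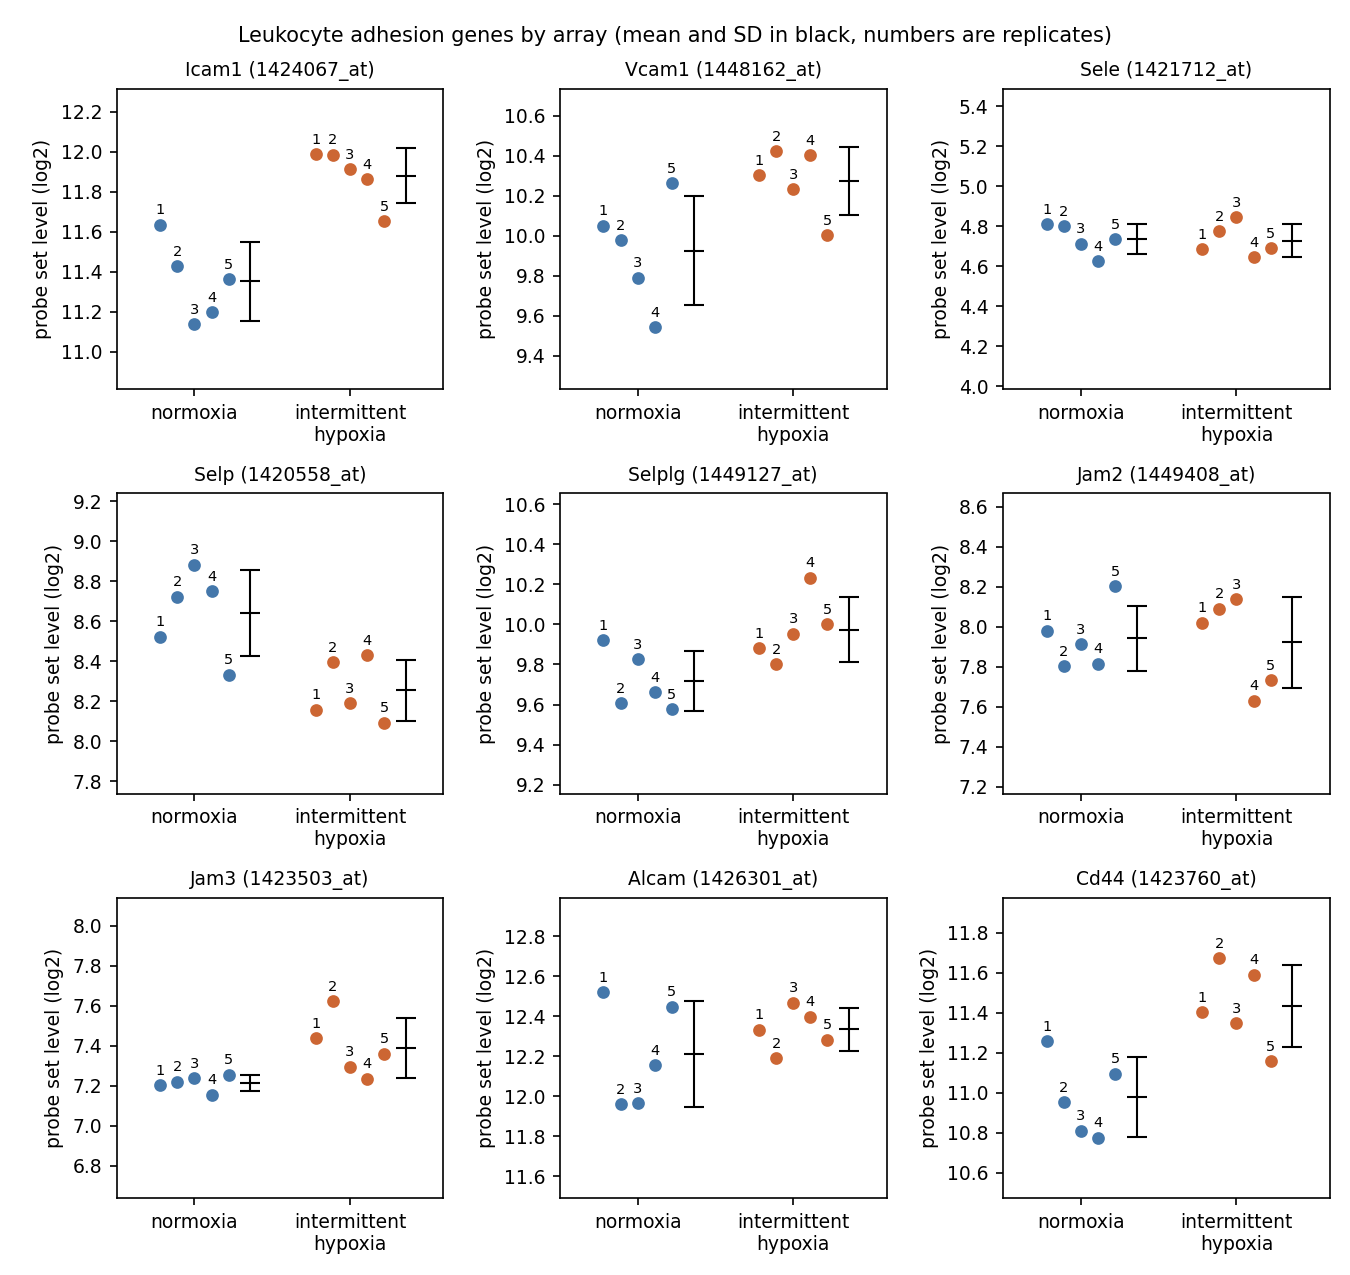
Log2 level of the probe set with the highest mean of each of the 9 genes on every array, with normoxia in blue and intermittent hypoxia in orange. Numbers are replicates, and black bars give the mean and SD of 5 arrays. Every panel spans the same range of log2 units, and Icam1 is the panel whose groups do not overlap.

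The sequences just upstream of the RefSeq start of Icam1, Cd44 and Selp are shown because these were the genes that passed. The table of promoters held 5 of the 9 genes. Each sequence covers 250 bases, 5′ to 3′ on the gene's strand, in build GRCm38.p6: chr9:21015690-21015939 on the plus strand for Icam1, chr2:102901666-102901915 on the minus strand for Cd44 and chr1:164115014-164115263 on the plus strand for Selp. Capitals mark matches to the motifs named after the sequences.
Icam1: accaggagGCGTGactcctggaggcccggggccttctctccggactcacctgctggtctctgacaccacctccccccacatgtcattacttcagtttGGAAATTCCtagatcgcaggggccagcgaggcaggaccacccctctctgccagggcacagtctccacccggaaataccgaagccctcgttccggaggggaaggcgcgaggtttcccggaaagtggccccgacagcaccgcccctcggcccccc
Cd44: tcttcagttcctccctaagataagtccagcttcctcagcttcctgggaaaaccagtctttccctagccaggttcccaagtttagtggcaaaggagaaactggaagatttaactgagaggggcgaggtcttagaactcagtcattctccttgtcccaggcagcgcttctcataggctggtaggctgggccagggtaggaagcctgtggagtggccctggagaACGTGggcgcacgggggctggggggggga
Selp: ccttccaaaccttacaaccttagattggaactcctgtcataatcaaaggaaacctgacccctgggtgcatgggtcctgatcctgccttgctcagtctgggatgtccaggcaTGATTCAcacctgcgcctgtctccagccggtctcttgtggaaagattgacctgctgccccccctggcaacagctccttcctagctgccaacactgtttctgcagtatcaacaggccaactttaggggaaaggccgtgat

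Both strands were searched for a 9-letter form of the NF-κB site (GGAANTTCC) and a loose form of the AP-1 site (TGANTCA). The usual AP-1 site has C or G in the middle. Also searched were the core of the hypoxia-response element with A (ACGTG) or G (GCGTG) and the TATA box (TATAAA). The motifs were chosen with these promoters in view, and none of their matches printed here overlapped another. The Icam1 window held GGAAATTCC from 153 to 145 bases before the start and a GCGTG core. Of 32851 promoter windows of this length 0.813% held GGAANTTCC, with any middle base, at some position, and 28.2% held GCGTG. The Cd44 window held an ACGTG core 29 to 25 bases before the start, and 16.6% of windows held ACGTG at some position on either strand. The Selp window held TGATTCA from 139 to 133 bases before the start, and 6.75% of windows held TGANTCA with any middle base. With T in the middle, TGATTCA matched the loose form only and is not the usual AP-1 site. The windows of Alcam and Sele, not printed, were searched too. Alcam also held GCGTG, and Sele held TGACTCA and TATAAA. The letters describe these windows and do not show that a factor bound them.

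Icam1 (probe set 1424067_at) kept its call under the most alternatives of the 3 genes that passed. Its levels were 11.64, 11.43, 11.14, 11.20 and 11.36 on normoxia arrays 1 to 5 and 11.99, 11.98, 11.91, 11.86 and 11.65 on intermittent hypoxia arrays 1 to 5. All 5 exposed lungs lay above all 5 control lungs, although hypoxia array 5 and normoxia array 1 nearly met. Icam1 was the 1 gene of 9 whose groups did not overlap, against 8.61% of all genes. The mean was 11.35 ± 0.20 in normoxia against 11.88 ± 0.14 after exposure (SD, n = 5 each), a difference of 0.53 (SE 0.10, 95% confidence interval 0.31 to 0.74, limma adjusted p = 0.00915). With each array left out in turn its adjusted p ran from 0.00447 to 0.0301, so the call was kept each time. Without normoxia arrays 2 to 4 the difference was 0.38 and did not pass (adjusted p = 0.251).

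Vcam1 had the same direction on all 3 of its probe sets and passed on none. On the probe set with the highest mean its levels were 10.05, 9.98, 9.79, 9.54 and 10.26 in normoxia and 10.30, 10.42, 10.23, 10.40 and 10.004 in intermittent hypoxia. The groups overlapped through normoxia array 5, which was high, and hypoxia array 5, which was low. The difference was 0.35 (95% confidence interval 0.08 to 0.61, limma adjusted p = 0.0779), and those of the other 2 probe sets were 0.33 and 0.11 (adjusted p = 0.117 and 0.272). Vcam1 passed without normoxia array 5 (adjusted p = 0.0216), without hypoxia array 5 (0.0449) and with weighted arrays (0.0372), and without normoxia arrays 2 to 4 its difference was 0.12.

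Among the selectins Selp fell, whereas Sele lay near the bottom of the scale and gave no readable direction. Selp (probe set 1420558_at) was measured at 8.52, 8.72, 8.88, 8.75 and 8.33 in normoxia and at 8.16, 8.40, 8.19, 8.43 and 8.09 in intermittent hypoxia. Normoxia array 5 lay within the range of the exposed lungs, and the other 4 control lungs lay above it. The mean was 8.64 ± 0.22 in normoxia against 8.25 ± 0.15 after exposure (SD, n = 5 each), and Selp fell by 0.39 (SE 0.10, 95% confidence interval -0.61 to -0.16, limma adjusted p = 0.0333). Its other probe set, 1449906_at, read 5.72 to 6.09 in normoxia and 5.60 to 5.63 in intermittent hypoxia, with no overlap, and fell by 0.24 (limma adjusted p = 0.0468). The exposed lungs were very close together on this probe set, with an SD of 0.0154 against 0.149 in normoxia. All of its levels lay below the median of every array, so it is a weak second reading.

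The call of Selp was not firm. It ended when normoxia array 2 (limma adjusted p = 0.0744), 3 (0.0845) or 4 (0.0857) was left out, and likewise for hypoxia array 1 (0.0775), 3 (0.0752) or 5 (0.0581). The SAM statistic gave q = 0.0518. With normoxia arrays 2 to 4 all removed the difference of Selp was -0.17 (adjusted p = 0.667). The call of 1449906_at ended on removing any 1 of 8 arrays, all but normoxia arrays 2 and 5, with adjusted p up to 0.106, and also with quantile normalization (0.0842).

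Sele lay between 4.63 and 4.81 in normoxia and between 4.65 and 4.85 in intermittent hypoxia, near the bottom of the scale of these arrays, which began at 3.99. Its difference was -0.01 (95% confidence interval -0.14 to 0.13, limma adjusted p = 0.943), and the groups overlapped almost entirely. Its single probe set gave no second reading.

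Selplg, the leukocyte ligand of the selectins, was measured at 9.92, 9.61, 9.83, 9.66 and 9.58 in normoxia and at 9.88, 9.80, 9.95, 10.23 and 10.001 in intermittent hypoxia. Of the exposed lungs, 3 lay above every control lung and 2 within their range. The difference of 0.26 (95% confidence interval 0.06 to 0.45) did not pass (limma adjusted p = 0.0835), and it did without normoxia array 1 (0.0433) and with weighted arrays (0.0452).

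The junctional molecules JAM-B and JAM-C, which bind each other between endothelial cells, gave no common picture. On the probe set with the highest mean Jam2 ran from 7.80 to 8.20 in the control lungs and from 7.63 to 8.14 in the exposed lungs, and its difference was -0.02 (95% confidence interval -0.26 to 0.22, limma adjusted p = 0.912). Of its 3 other probe sets 1 fell, 1431417_at, by 0.32 (adjusted p = 0.0439), and 2 differed by -0.15 and -0.03 and did not pass. That call ended on removing any 1 of 7 arrays (normoxia 2, 3 or 4, or hypoxia 2, 3, 4 or 5), where the adjusted p reached 0.114. It also ended with quantile normalization (0.0628) and with SAM (q = 0.0582), and the difference was -0.14 with the 3 narrow normoxia arrays all removed.

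Jam3 was tightly grouped in normoxia, from 7.16 to 7.26, and ranged from 7.24 to 7.62 in intermittent hypoxia, where 4 of 5 lungs lay above all controls. The difference of 0.18 (95% confidence interval 0.02 to 0.34) did not pass (limma adjusted p = 0.124). The other probe set of Jam3 differed by -0.08, with 4 exposed lungs below every control lung and 1 above them, so the 2 probe sets disagreed in sign.

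ALCAM, a receptor of activated leukocytes, epithelium and endothelium that binds CD6 on T cells, differed by 0.12 (95% confidence interval -0.12 to 0.36, limma adjusted p = 0.472) on one probe set and by 0.31 (adjusted p = 0.165) on the other. Its normoxia values fell into a low set, 11.96, 11.97 and 12.16 on arrays 2 to 4, and a high one, 12.52 and 12.45 on arrays 1 and 5. The exposed lungs, from 12.19 to 12.47, lay above the low set and, apart from hypoxia array 3, below the high one. Without arrays 2 to 4 the difference was -0.15, and with quantile normalization it was -0.03, so the direction for Alcam was not settled.

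Cd44 was higher on both of its probe sets. On 1423760_at its levels were 11.26, 10.95, 10.81, 10.78 and 11.10 in normoxia and 11.40, 11.67, 11.35, 11.59 and 11.16 in intermittent hypoxia. Normoxia array 1 and hypoxia array 5 crossed, and the other 4 exposed lungs lay above every control. The mean was 10.98 ± 0.20 in normoxia against 11.43 ± 0.20 after exposure (SD, n = 5 each), and Cd44 rose by 0.45 (SE 0.11, 95% confidence interval 0.21 to 0.70, limma adjusted p = 0.0240).

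The other probe set of Cd44, 1452483_a_at, read 6.76, 6.43, 6.67, 6.92 and 6.99 in normoxia and 7.29, 7.05, 7.90, 8.02 and 7.10 in intermittent hypoxia. Its groups did not overlap, and hypoxia arrays 3 and 4 stood well above the rest. It rose by 0.72 (SE 0.19, limma adjusted p = 0.0285). The call of 1423760_at ended when normoxia array 2 (adjusted p = 0.0522), 3 (0.0641) or 4 (0.0675) was left out, or hypoxia array 1 (0.0524), 2 (0.0584) or 4 (0.0543). Its rise was 0.30 with quantile normalization, which still passed (0.0356), and 0.26 with normoxia arrays 2 to 4 all removed, which did not (0.550). The call of 1452483_a_at ended on removing normoxia array 2, 3 or 4 or hypoxia array 1, 3 or 4, where the adjusted p reached 0.0685, and SAM gave q = 0.0517. Its difference was 0.60 with normoxia arrays 2 to 4 all removed (adjusted p = 0.454).

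Of all 18 probe sets of the 9 genes, 3 were higher and 3 lower, against 11.9% of all probe sets in either direction.

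**Figure D2:**
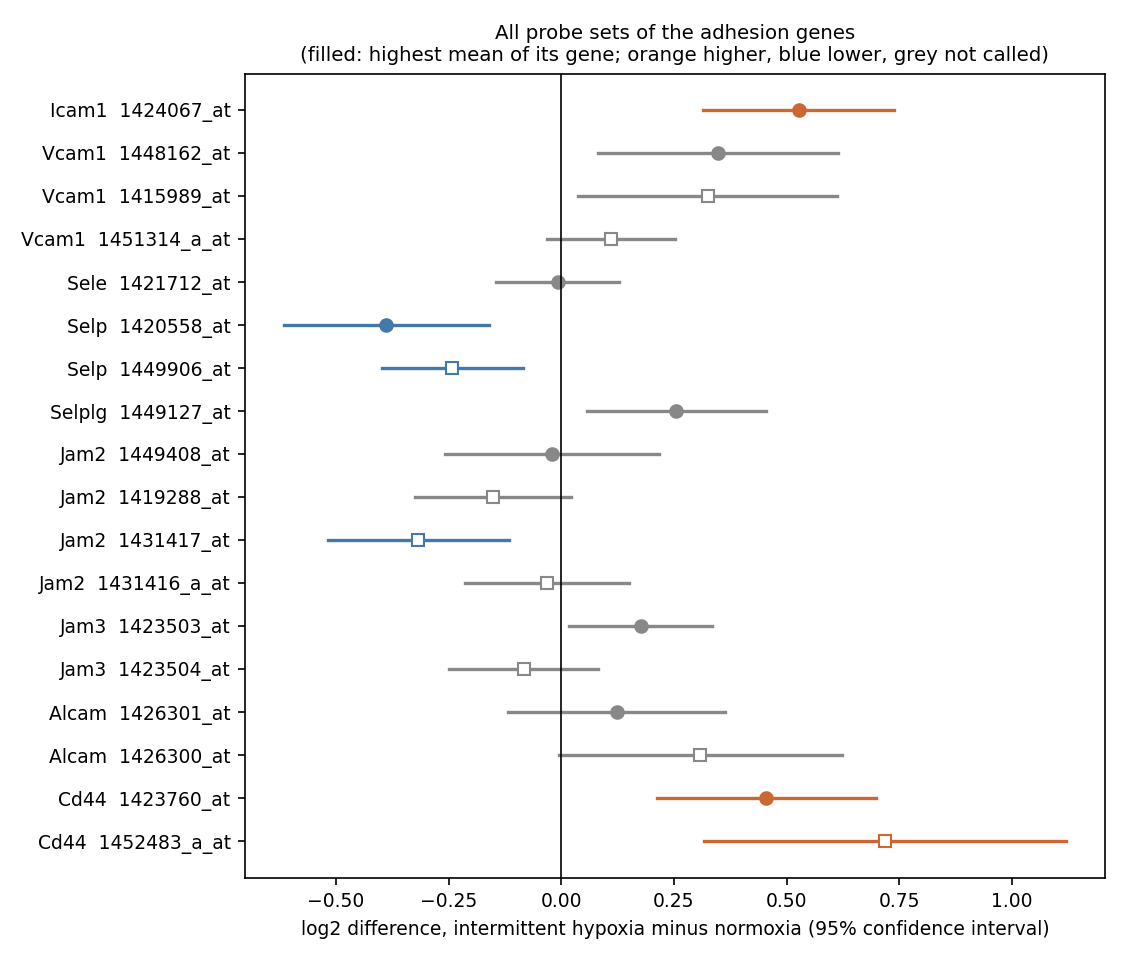
Log2 difference between intermittent hypoxia and normoxia with its 95% confidence interval for all 18 probe sets of the 9 genes. Filled circles are the probe set with the highest mean of each gene and open squares the others, with those higher in orange, those lower in blue and those that did not pass in grey. Both probe sets of Cd44 lie above 0 and both of Selp below it, whereas the 2 of Jam3 lie on opposite sides.

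Leukocytes, endothelium and platelets all carry products of these genes, so each gene was set against markers of these cells on the same arrays. Counts of markers, here and in the paragraphs that follow, stand beside 8.93% of all genes higher and 3.6% lower. All 8 markers shared by leukocytes rose: Ptprc, Laptm5, Coro1a, Cd53, Cd52, Arhgdib, Lcp1 and Rac2. Their mean log2 level lay between 9.90 and 10.47 in the control lungs and between 10.75 and 11.11 in the exposed lungs, a difference of 0.69. Coro1a, which binds actin, rose by 0.93 (SE 0.14) and Cd53, a tetraspanin, by 0.77 (SE 0.10). Ptprc, Coro1a, Cd53, Cd52 and Lcp1 also passed with each array left out in turn and with quantile normalization, where 5 of 8 passed. With normoxia arrays 2 to 4 removed, 0 of 8 passed limma after adjustment and 7 had an unadjusted p below 0.05, and the list's median was 0.45 against 0.72 with all arrays.

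Among B cell markers 4 of 6 rose, among them Ms4a1 (CD20) by 1.14 (SE 0.23), and Pax5 differed by -0.13 (limma adjusted p = 0.246). Among T and NK cell markers 4 of 6 rose, among them Cd2, a T cell adhesion receptor, by 0.60 (SE 0.13), and 2 of the 4 did not pass with SAM or on removing normoxia array 2 or 3 or hypoxia array 1, 3 or 4. Cd3e of this list differed by -0.09 (limma adjusted p = 0.524). Of 7 alveolar macrophage markers 2 rose, Cd68 by 0.74 and Mrc1 by 0.41, and the call of Mrc1 ended on removing any 1 of 4 arrays (limma adjusted p up to 0.0624). The mean level of this list was 7.21 on hypoxia array 5 and 7.66 to 7.90 on the other exposed arrays, and 5 of 7 passed with hypoxia array 5 left out. On removing normoxia array 3 or hypoxia array 2, 3 or 4, 1 of 7 passed. All 7 neutrophil markers had a negative difference, with a median of -0.35, of which Mmp8, a granule collagenase, passed at 0.0441 with limma adjustment. Its call ended on removing any 1 of 8 arrays. With normoxia arrays 2 to 4 removed the medians were 0.58 for B cells, 0.38 for T and NK cells, 0.39 for macrophages and -0.09 for neutrophils, and 0 genes of these lists passed limma, with 5, 5, 4 and 0 at an unadjusted p below 0.05.

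The 13 endothelial markers had a median difference of 0.14 and a mean level between 10.76 and 11.17 in the control lungs and between 10.86 and 11.15 in the exposed lungs. Of these 1 fell, Ramp2, which pairs with the adrenomedullin receptor, by 0.30 (SE 0.07), and its call ended on removing normoxia array 2 or hypoxia array 1 or 4 (limma adjusted p up to 0.0561). Their median was -0.01 with quantile normalization and -0.04 with normoxia arrays 2 to 4 removed. All 8 platelet and megakaryocyte markers had a negative difference, with a median of -0.37. Of these 2 fell, the C-type lectin gene Clec1b by 0.59 (SE 0.16) and the von Willebrand factor receptor gene Gp1bb by 0.58 (SE 0.18). Their mean level lay between 8.48 and 9.24 in the control lungs and between 8.19 and 8.64 in the exposed lungs. The call of Clec1b ended on removing any 1 of 6 arrays and that of Gp1bb on removing any 1 of 7, and neither passed with SAM. With normoxia arrays 2 to 4 removed the median of the platelet list was -0.54. There 0 of 8 passed limma after adjustment and 6 had an unadjusted p below 0.05.

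Cells of the lung wall also carry these molecules. Of 8 markers of alveolar and airway epithelium 1 rose, Aqp5, the water channel of alveolar type 1 cells, by 0.53, and by 0.32 with normoxia arrays 2 to 4 removed (limma adjusted p = 0.242). A second marker of the list passed with normoxia array 5 left out or with arrayWeights, and the median was 0.13, or 0.02 with quantile normalization. Of 8 fibroblast markers 5 rose, with a median of 0.39, or 0.23 with quantile normalization, where 1 fell. Pdgfra and Tcf21 of this list differed by -0.14 and -0.06 with all arrays and did not pass. Of 5 mesothelial markers 2 rose, Gpm6a and Upk3b, with a median of 0.34, but 0 passed limma with quantile normalization (median 0.18), 1 passed SAM and 1 to 3 passed with 1 array left out. The call of Upk3b ended on removing any 1 of 8 arrays. Of 8 markers of smooth muscle and pericytes 1 fell, Rgs5, by 0.63, and by 0.64 with normoxia arrays 2 to 4 removed (adjusted p = 0.177). Of 5 adipose markers Retn passed, with a difference of -0.35, and its call ended on removing any 1 of 8 arrays (adjusted p up to 0.116) and with SAM (q = 0.0624). The part of these cells in the differences of Icam1 and Cd44 was not tested.

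Set against the endothelial markers of the same array, Icam1, Vcam1 and Cd44 were all higher in the exposed lungs. A gene's level minus the mean level of a marker list has no meaning of its own on arrays, so only its difference between groups is given, for 27 such comparisons of 9 genes with 3 lists that were chosen after the data were seen. Relative to the endothelial markers Icam1 rose by 0.45, Cd44 by 0.38 and Vcam1 by 0.28, each with all 5 exposed lungs above all 5 controls (exact two-sided permutation p = 0.00794, the smallest the design allows, and 0.0238 adjusted over the 27). The mean level of the endothelial list itself differed by only 0.07. These values therefore largely restate the genes' own differences and add no separate support for them. The plain level of Vcam1 differed by 0.35 and had not passed, with its limma p adjusted over all 22626 probe sets and not over 27. Test and adjustment both differ, so passing here does not show a clearer difference. Without normoxia arrays 2 to 4 the relative values of Icam1, Cd44 and Vcam1 were 0.48, 0.35 and 0.22. Each had an exact permutation p of 0.0476, the smallest that 2 against 5 arrays allow, which cannot pass after adjustment here. Icam1 also passed with each array left out in turn. Cd44 did not with hypoxia array 4 left out (exact permutation adjusted p = 0.0536), nor Vcam1 with hypoxia array 1 (0.0584), 2 (0.0536) or 4 (0.0584) left out.

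Set against the leukocyte markers, the same genes were not higher. Relative to them Icam1 differed by -0.16 (exact permutation adjusted p = 0.214), Cd44 by -0.23 (0.0902), Vcam1 by -0.34 (0.0536) and Selplg by -0.43 (0.0536). For a gene whose own level hardly differed this measure only restates the rise of the markers, so Sele, Jam2, Jam3 and Alcam are not read against them. The part of the leukocyte genes in the rise of Icam1 and Cd44 was not tested.

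Against the leukocyte markers Selp fell by 1.07, of which the rise of the markers themselves made up 0.69. The fall was 0.63 with normoxia arrays 2 to 4 removed. All 5 exposed lungs lay below all controls (exact permutation adjusted p = 0.0238, and 0.0536 with hypoxia array 4 left out). The leukocyte list alone separated the groups, and Sele, whose own level hardly differed, gave the same adjusted p. That p is therefore not read as a result for Selp. Against the endothelial markers its difference was -0.46 (exact permutation adjusted p = 0.0756, and 0.0268 with normoxia array 5 left out), and -0.08 with normoxia arrays 2 to 4 removed. Against the platelet markers it was 0.00 (exact permutation p = 1). The SD of this measure was 0.37 in normoxia and 0.33 in intermittent hypoxia. Leaving out single arrays moved it from -0.15 to 0.11, and removing normoxia arrays 2 to 4 moved it to 0.34. Normoxia array 1 had the highest mean platelet level, 9.24, and a Selp level of 8.52, below normoxia arrays 2, 3 and 4. The part of platelets in the fall of Selp was not tested.

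**Figure D3:**
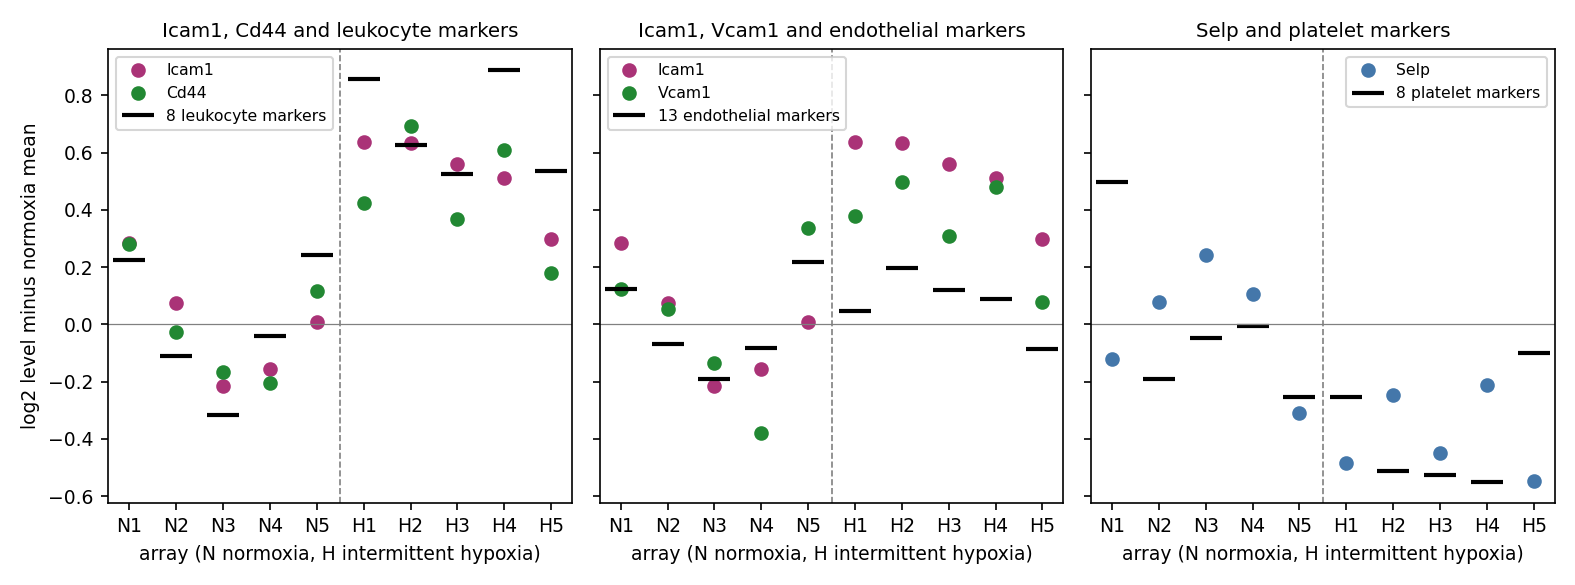
Log2 level minus its normoxia mean on each of the 10 arrays for Icam1, Cd44, Vcam1 and Selp (dots) and for the mean of a marker list (black bars). Icam1, Cd44 and the leukocyte markers are above 0 on all 5 exposed arrays, Icam1 and Vcam1 lie above the endothelial markers there, and Selp and the platelet markers are below 0 on those arrays, in differing order.

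Partners of these molecules were read from lists that were also written with earlier results known. Each count below stands beside the shares of all genes, 8.93% higher and 3.6% lower. Of 17 other adhesion molecules of the endothelium 3 rose and 1 fell, with a median difference of 0.19, or 0.06 with quantile normalization. The number that rose was 7 with normoxia array 5 left out, 5 with normoxia array 1 or hypoxia array 5 left out, 2 with normoxia array 4 or hypoxia array 1 left out, 6 with arrayWeights and 1 with normoxia arrays 2 to 4 removed. The share of all probe sets that passed moved too. It was 11.9% with all arrays, 21.2% without normoxia array 5, 18.3% with arrayWeights and 4.43% without normoxia array 4. Emcn, the sialomucin endomucin that covers capillary and venous endothelium, rose by 1.03 (SE 0.08, limma adjusted p = 9.3e-05), and Cd34, another sialomucin and a ligand of L-selectin in lymph nodes, by 0.68 (SE 0.09). Emcn also passed with each array left out in turn and with normoxia arrays 2 to 4 removed (0.91, adjusted p = 0.00775), and Cd34 with each array left out but not with those 3 removed (0.51, 0.0748). Nectin3, which joins cells at junctions, rose by 0.41 (SE 0.10), or 0.26 with quantile normalization, and its call ended on removing normoxia array 4 or hypoxia array 1 (limma adjusted p up to 0.0596). Madcam1, the ligand of the integrin α4β7, fell by 0.31 (SE 0.07). Its means of 6.33 in normoxia and 6.01 in intermittent hypoxia lay below the median of every array, so little weight rests on this call. Nectin3 and Madcam1 differed by 0.19 and -0.22 with normoxia arrays 2 to 4 removed (adjusted p = 0.449 and 0.404).

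The integrins that bind ICAM-1 and VCAM-1 changed in part. Of 12 leukocyte integrins and related receptors 3 rose and 1 fell, with a median of 0.17, and 1 rose with normoxia array 3 or hypoxia array 2 left out. Itgb2, the β chain shared by LFA-1 and Mac-1, rose by 0.58 (SE 0.14, limma adjusted p = 0.0226) and its call ended on removing normoxia array 2 or 3 or hypoxia array 2 (up to 0.0608). Its partner Itgax, the CD11c chain of dendritic cells and alveolar macrophages, rose by 0.66 (SE 0.13). With normoxia arrays 2 to 4 removed the differences of Itgb2 and Itgax were 0.41 and 0.50 (adjusted p = 0.459 and 0.312). The α chains of LFA-1, Mac-1 and α4 integrins, named after their values were seen, differed by -0.01 for Itgal, 0.09 for Itgam and -0.01 for Itga4, and none passed (adjusted p = 0.913, 0.494 and 0.948). Their normoxia means of 7.31, 5.39 and 6.46 lay below the median of every array, so a change could be missed. Itgb7 rose by 0.31 and Ceacam1, an adhesion molecule of epithelium and leukocytes, fell by 0.21, with calls that ended on removing any 1 of 6 and of 9 arrays.

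Of the 12 enzymes and carriers that build selectin ligands 0 passed limma after adjustment and 0 passed SAM, with 2 at an unadjusted p below 0.05 and a median difference of 0.00. With arrayWeights 1 passed. The smallest p values of this list belonged to Tpst1, which sulfates tyrosines of PSGL-1 (0.33, limma adjusted p = 0.0537), and to the sialyltransferase gene St3gal6 (0.28, adjusted p = 0.110). Among 10 measured genes of hyaluronan, its receptors and the linkers of CD44, 2 rose and 1 fell, with a median of -0.14. Cd74, which joins CD44 in the receptor of the cytokine MIF, rose by 0.64 (SE 0.13), and Msn, the linker moesin, by 0.26 (SE 0.07). The hyaluronan receptor gene Lyve1 fell by 0.56 (SE 0.11), the opposite direction to Cd44. With normoxia arrays 2 to 4 removed the differences of Cd74 and Lyve1 were 0.36 and -0.54 (adjusted p = 0.265 for each). With normoxia array 5 left out 3 genes of this list rose and 3 fell, and with normoxia array 1 left out 3 rose and 2 fell. The call of Msn ended on removing any 1 of 7 arrays and with quantile normalization (0.13, adjusted p = 0.117).

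Of 13 measured genes of the cytokine route to induced adhesion molecules 2 rose and 0 fell, with a median of 0.11, against 12.5% of all genes called in either direction. The inducing cytokines, named after their values were seen, differed by -0.10 for Tnf, -0.04 for Il1a, -0.10 for Il1b and -0.11 for Ifng, and the NF-κB inhibitor gene Nfkbia by -0.17, and none of these passed (limma adjusted p = 0.375, 0.692, 0.679, 0.374 and 0.105). In normoxia Il1a lay at 5.38 and Ifng at 4.73, low on a scale that began at 3.99, so little can be read from their differences. Rela, the p65 subunit of NF-κB, rose by 0.31 (SE 0.07, limma adjusted p = 0.0222) and the TNF receptor gene Tnfrsf1b by 0.26 (SE 0.07, adjusted p = 0.0359). Both calls ended on removing any 1 of 6 arrays and with quantile normalization, where the differences were 0.16 and 0.21 (0.0700 and 0.0708). They were 0.17 and 0.23 with normoxia arrays 2 to 4 removed (adjusted p = 0.537 and 0.482).

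**Figure D4:**
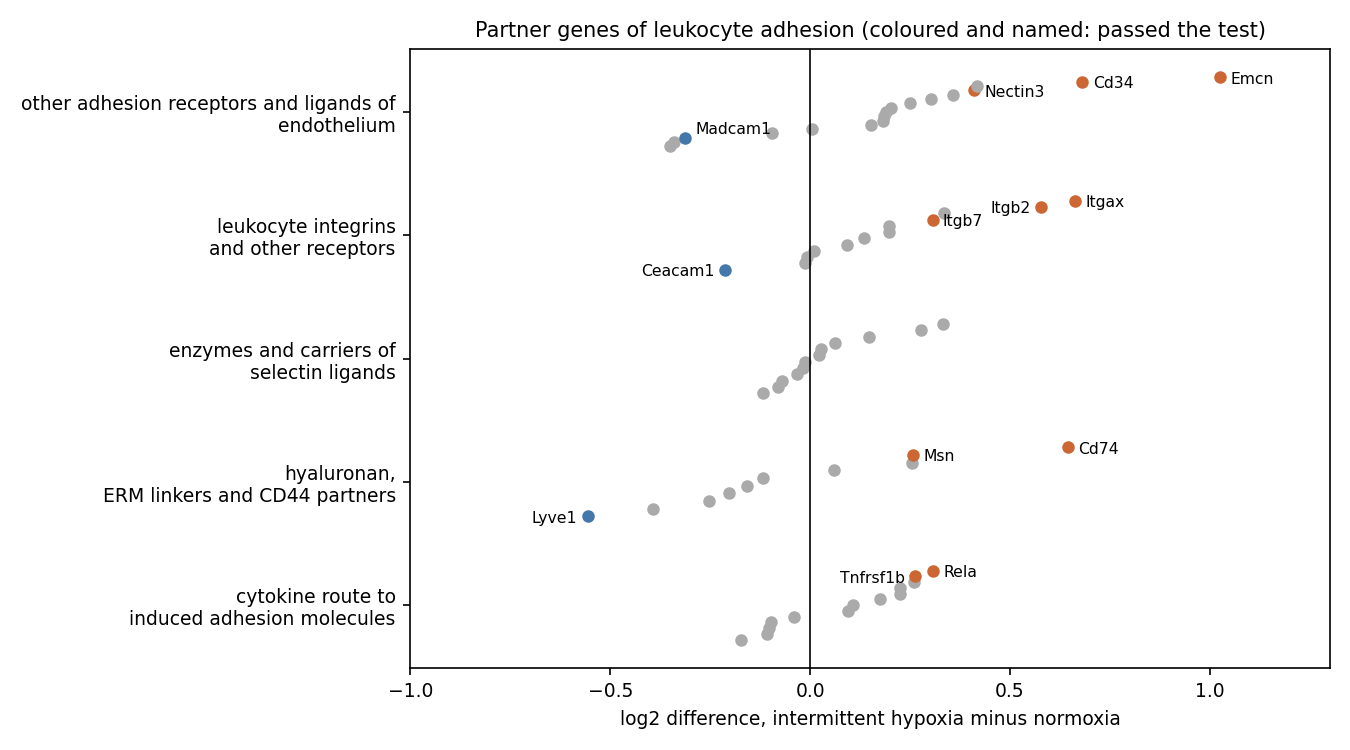
Log2 difference between intermittent hypoxia and normoxia for each measured gene of 5 lists of partner molecules, 1 dot per gene. Coloured and named dots passed the test (orange higher, blue lower), and grey dots did not. The list of selectin ligand enzymes has no coloured dot.

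The genes whose deviations from the group means were most like those of each member that passed were sought over the 10 arrays among 12392 other genes. For Icam1 these were Cnpy2, Snx3 and Rab1a, with Pearson's r of 0.969, 0.967 and 0.964, and for Cd44 they were Sec61b, Canx and Rabgap1, with r of 0.971, 0.958 and 0.953. For Selp they were Htr2c, Dpys and Klkb1, with r of 0.952, 0.940 and 0.932. None was another member. The values share the arrays and their normalization and are a description only.

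**Figure D5:**
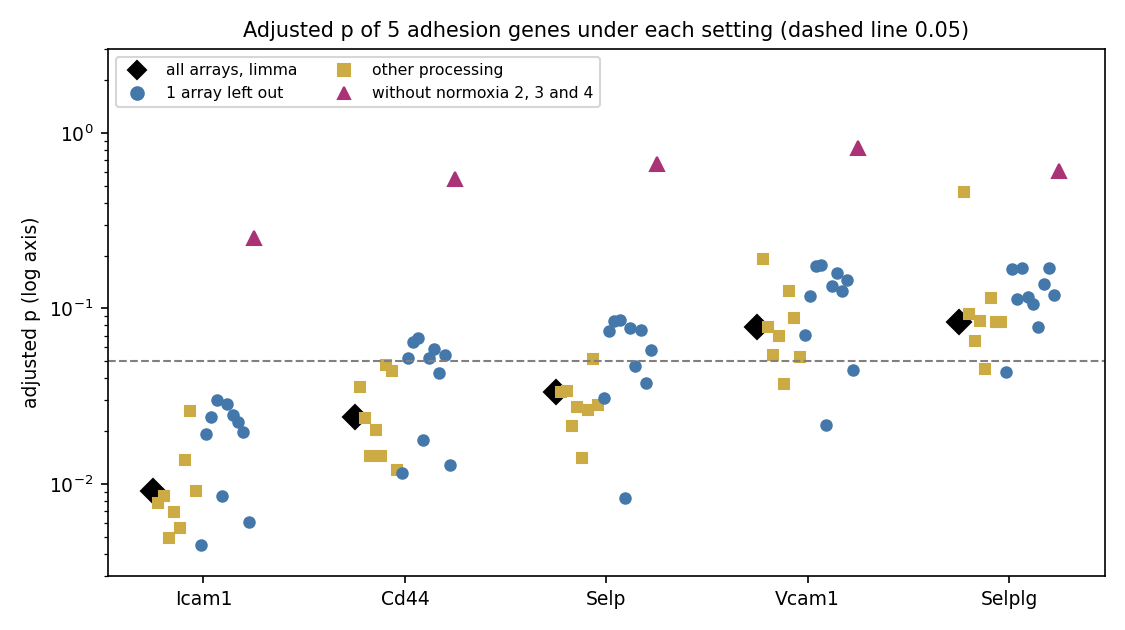
Adjusted p of Icam1, Cd44, Selp, Vcam1 and Selplg, on a log axis, with all arrays (black diamonds), with 1 array left out (blue circles), with other processing (yellow squares) and without normoxia arrays 2 to 4 (purple triangles). The dashed line is the threshold of 0.05. Icam1 stays below it in all but the last, Cd44 and Selp lie on both sides, and most points of Vcam1 and Selplg lie above it.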

How the data were processed

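The authors deposited log2 probe set levels of 10 arrays; the submitters' processing notes name RMA and affy, without version or setting. The spread of values differed between arrays more than joint quantile normalization leaves, so that step is uncertain. By the platform annotation 20380 probe sets had 1 symbol, 691 several and 1555 were unnamed here. All 18 member probe sets kept their symbol in the reference gene table. Groups came from the labels, with separate animals as replicates. No filter was applied before testing all 22626 probe sets with limma 3.58.1 (lmFit and eBayes, R 4.3.3), with Benjamini-Hochberg adjustment. SAM, named in the series' design text, was recomputed as an alternative with 100 permutations and gives q values. The scripts' tests were run on simulated data. Members and lists were chosen with earlier results of these data known. Named genes were the members, list genes that passed (not every one) and up to 2 of a list with none. A few listed genes were not analysed here.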

Additional observations from a re-analysis of the deposited data

How the results depend on the processing

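Of the 9 genes 3 passed, and 3 did with quantile normalization, median centring, a filter at the median level, trended robust eBayes, averaged probe sets and the replicate block. The count was 2 with SAM, 5 with arrayWeights (which added Vcam1 and Selplg) and 1 to 4 with single arrays left out. Without normoxia arrays 2, 3 and 4 it was 0 with limma, with 1 gene (Icam1) at an unadjusted p below 0.05. Over all probe sets 2699 passed, 4132 with arrayWeights, 1003 to 4800 with 1 array left out and 16 without normoxia arrays 2 to 4. Of those called 71.2% were higher, and 59.1% with quantile normalization. Same-numbered arrays were not paired, as their deviations correlated from -0.24 to 0.22, and the replicate block gave 1755 calls. The block ended the calls of the second probe set of Selp (limma adjusted p = 0.0751) and of Jam2 1431417_at (0.0850). Some differences near 0 changed sign. With quantile normalization Sele was 0.0275, Jam2 1431416_a_at 0.0110, Alcam -0.0324 and Selp against the platelet markers -0.0107. With 1 array left out Sele ran from -0.0374 to 0.0125, Jam2 from -0.0750 to 0.0520, Jam2 1431416_a_at from -0.0801 to 0.0279 and Selp against the platelet markers from -0.154 to 0.113. Without normoxia arrays 2 to 4 Jam2 1431416_a_at was 0.0201, Alcam -0.15 and its other probe set -0.0621. The causes were not tested. Sele and Jam3 had no value under the filter.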
